A study of Mus musculus with 15 samples.

Results

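Of 46 genes of the cell cycle and of mitosis, 43 were measured in whole kidneys of mice that carry the PRCC-TFE3 fusion gene, and they are described here by their role in the cycle. A gene was taken as measured where an entry of the array was annotated with its symbol and no other, and for Rrm2, which had 2 such entries, the one with the higher mean over the 15 arrays was used. Ccne2, Ccnb1 and Ncapg had no entry under 1 symbol and were not analysed here. PRCC-TFE3 joins a splicing-associated protein to TFE3, one of the MiT transcription factors, and occurs in translocation renal cell carcinoma. All mice carried the Rosa26-LSL-PRCC-TFE3 knock-in, in which a stop cassette that Cre recombinase removes holds the fusion silent. The 4 groups were 4 mice without KSP-Cre at 4 months of age (4M Cre-), 4 mice with it at 4 months (4M Cre+), 3 mice without it at 7 months (7M Cre-) and 4 mice with it at 7 months (7M Cre+), with 1 kidney sample per array. The promoter of KSP-Cre is that of Cdh16, a cadherin of tubule epithelium. Since mice with KSP-Cre alone were not among the groups, effects of the fusion and of Cre itself cannot be told apart.

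A cell enters the cycle when D-type cyclins with CDK4 and CDK6, and then cyclin E with CDK2, release the E2F factors from the retinoblastoma protein. E2F factors turn on the genes of S phase, among them the subunits of the MCM helicase and the enzymes that supply nucleotides. Later in the cycle the MuvB complex with B-MYB and FOXM1 turns on the genes of G2 and mitosis, many of them through promoter elements called CHR and CCAAT box. In the adult kidney few tubule cells divide, and they re-enter the cycle after injury. Because these transcripts are made in certain phases, their level in a tissue follows how many cells are in those phases, and more cycling cells cannot be told apart from more of the RNA per cell in whole-kidney samples.

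The promoters of 6 members are shown because they stand for the roles: in each role list the member with the largest rise at 7 months was taken among those that passed the test and whose promoter was in the table used. Ccna2 was left out for want of a promoter there, and so was Ccnd1, the only G1/S gene that passed, so that no G1/S promoter is shown. The sequences come from RefSeq on GRCm38.p6 and cover the 250 bases before the annotated start, 5′ to 3′ on the strand of the gene. Capitals mark the searched motifs on either strand: CHR (TTTGAA, or TTCAAA on the other strand), CCAAT box (CCAAT or ATTGG), E2F site (TTTCCCGC, TTTCGCGC, TTTGCCGC or TTTGGCGC, or their reverse complements) and E-box (CACGTG), the element that MiT factors bind.
Mcm3, chr1:20820313-20820562, minus strand: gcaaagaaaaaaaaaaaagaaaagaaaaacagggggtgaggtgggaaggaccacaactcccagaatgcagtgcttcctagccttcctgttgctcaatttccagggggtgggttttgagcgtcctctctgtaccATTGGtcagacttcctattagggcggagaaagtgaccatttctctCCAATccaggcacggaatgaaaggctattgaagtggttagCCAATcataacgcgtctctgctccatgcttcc
Rrm2, chr12:24708004-24708253, plus strand: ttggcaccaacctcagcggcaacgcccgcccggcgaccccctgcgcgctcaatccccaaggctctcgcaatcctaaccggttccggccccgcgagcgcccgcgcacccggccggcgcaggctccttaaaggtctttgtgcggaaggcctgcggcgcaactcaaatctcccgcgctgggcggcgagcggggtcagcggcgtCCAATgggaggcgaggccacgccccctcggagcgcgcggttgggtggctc
Cdk1, chr10:69352913-69353162, minus strand: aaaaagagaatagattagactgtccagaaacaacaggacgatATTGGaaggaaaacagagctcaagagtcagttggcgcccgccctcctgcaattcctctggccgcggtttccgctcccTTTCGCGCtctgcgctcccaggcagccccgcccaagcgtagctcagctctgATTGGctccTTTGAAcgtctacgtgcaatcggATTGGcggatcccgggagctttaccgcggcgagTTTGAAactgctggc
Cenpe, chr3:135212313-135212562, plus strand: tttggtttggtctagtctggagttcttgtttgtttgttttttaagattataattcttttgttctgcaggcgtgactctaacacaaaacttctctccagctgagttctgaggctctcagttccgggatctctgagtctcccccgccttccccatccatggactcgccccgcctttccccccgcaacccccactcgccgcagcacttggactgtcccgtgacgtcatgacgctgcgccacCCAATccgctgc
Top2a, chr11:99024190-99024439, minus strand: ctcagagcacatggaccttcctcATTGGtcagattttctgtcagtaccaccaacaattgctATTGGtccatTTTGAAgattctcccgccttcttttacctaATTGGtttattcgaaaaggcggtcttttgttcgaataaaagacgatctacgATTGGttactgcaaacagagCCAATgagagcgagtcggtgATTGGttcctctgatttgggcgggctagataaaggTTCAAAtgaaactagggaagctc
Anln, chr9:22389207-22389456, minus strand: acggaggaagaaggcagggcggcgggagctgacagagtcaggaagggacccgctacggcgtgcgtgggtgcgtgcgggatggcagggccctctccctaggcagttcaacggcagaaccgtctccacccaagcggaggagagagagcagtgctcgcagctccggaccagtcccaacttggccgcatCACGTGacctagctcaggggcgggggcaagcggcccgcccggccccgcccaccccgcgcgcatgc

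The promoters of the mitotic members Cdk1 and Top2a each held 2 CHR matches, and Top2a held 6 CCAAT boxes and Cdk1 3. In the S phase gene Mcm3 there were 3 CCAAT boxes before the start, while its 2 E2F matches began 20 and 39 bases into the gene, where both CHR matches of Anln also lay (first bases 22 and 29). Rrm2 and Cenpe each had 1 CCAAT box, and Anln had an E-box 65 bases before the start. The windows used for counting were 300 bases long, from 250 before the start to 50 after it, and 38 of the 46 genes had one. Of the 25 mitotic members with a promoter, 18 (72%) held a CHR and 20 (80%) a CCAAT box, against 20.2% and 41.1% of all 27025 promoters. Of the 13 members of G1/S, replication and nucleotide supply with a promoter, 1 (7.69%, Mcm2) held a CHR and 8 (61.5%) a CCAAT box. An E2F site was in 6 of these 13 (46.2%), against 2 of the 25 mitotic members (8%, Cdk1 and Ncapg) and 2.6% of all promoters. All 6 were among the 8 genes of origin licensing and replication, Cdc6, Cdt1, Mcm3, Mcm5, Mcm6 and Mcm7, and those 8 also held a CCAAT box in 6 cases (75%), while none of the 3 genes of nucleotide supply or the 2 of G1/S held an E2F site. The E-box was in 3 of the 38 windows (7.89%, Anln, Ttk and Tyms) and in 8.09% of all promoters. A match describes the letters in the window and is not evidence of binding.

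**Figure D1:**
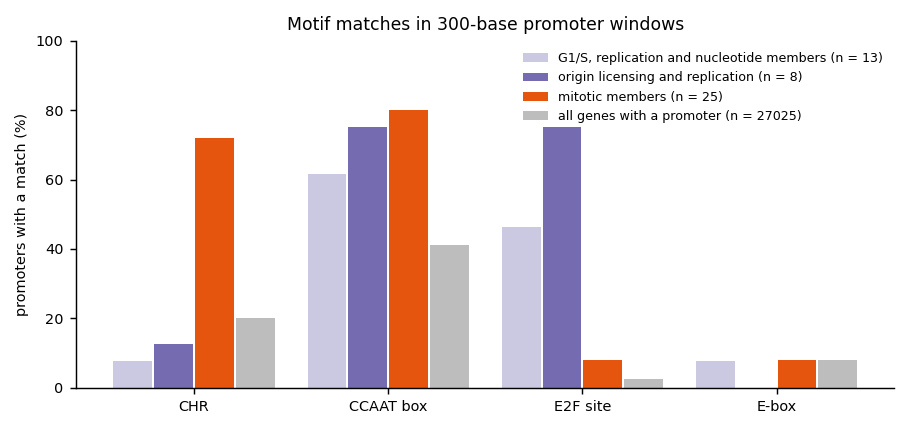
Bars give the percentage of promoter windows of 300 bases with at least 1 match of each motif, for 13 members of G1/S, replication and nucleotide supply, the 8 replication genes among them, 25 mitotic members and all 27025 promoters. CHR matches are in 72% of the mitotic members and 7.69% of the 13, E2F sites in 8% and 46.2%, and CCAAT boxes in 80% and 61.5%.

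Expression was measured on Affymetrix Mouse Gene 2.0 ST arrays, and the values are on the log2 scale, on which a difference of 1 is a doubling. Array medians lay between 4.4 and 4.55. The samples held kidney RNA: the 12 proximal tubule markers averaged 11.15 and the 12 markers of distal nephron and collecting duct 9.49 in 4M Cre- kidneys. The mean of Y-linked genes was 6.92 or more on 8 arrays and 2.98 or less on 7, with both kinds in every group, and the labels give no sex. As a guide to the level of unused genes, 1394 odorant and vomeronasal receptor genes had a median of 2.47 and a 95th percentile of 4.15. At or below 4.15 lay 13 members in 4M Cre- kidneys, 12 in 7M Cre- kidneys and 7 in each Cre+ group. For the 7 that lay there in all groups (Cdc6, Foxm1, Bub1, Cenpf, Birc5, Cdca8 and Kif4) levels and tests are given but no size of a change. Other members lay there in Cre- kidneys only: Melk, Top2a and Bub1b at both ages, E2f1, Cenpe and Anln at 4 months, Ccne1 and Ttk at 7 months. Their changes at those ages may be understated, and where a fold is given it is a lower bound, with each Cre- array taken at 4.15 or at its own value, whichever was higher. Signals of different genes depend on their probes, so levels are compared between groups of one gene only.

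At 4 months 14 of the 43 members were higher in Cre+ than in Cre- kidneys and none was lower, while 2.73% of all 22180 genes were higher and 0.803% lower (limma, Benjamini-Hochberg adjusted p under 0.05, 2-sided). At 7 months 31 members were higher and none was lower, beside 11.7% of all genes higher and 10.8% lower. No member was lower with an unadjusted p under 0.05 at either age, and a plain linear model called 13 and 27 members higher and 0 lower. The median log2 change of the members was 0.40 at 4 months and 0.55 at 7 months, against 0.05 and -0.04 over all genes; the members' medians include the dim ones. A positive change was measured in 40 members at 4 months and in 41 at 7 months, and in 13519 and 9671 of the 22180 genes. The Cre+ arrays all lay above the Cre- arrays for 21 members at 4 months and for 32 at 7 months, as they did for 6.31% and 14% of all genes. All 14 members called at 4 months were also called at 7 months, 17 were called at 7 months only, and 12 at neither age. Without 4M Cre+ replicate 1 the 4-month count was 17, as Cdc20, Bub1b, Ttk and Ncaph passed (limma adjusted p = 0.049, 0.026, 0.047 and 0.021) and Kif4 did not. The 7-month count was 24 without 7M Cre- replicate 2. When each array was centred on its median, 49.3% of the calls over all genes at 4 months were increases in place of 77.3%, and 39.3% in place of 52.0% at 7 months, while 13 and 27 members remained called higher and none lower.

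**Figure D2:**
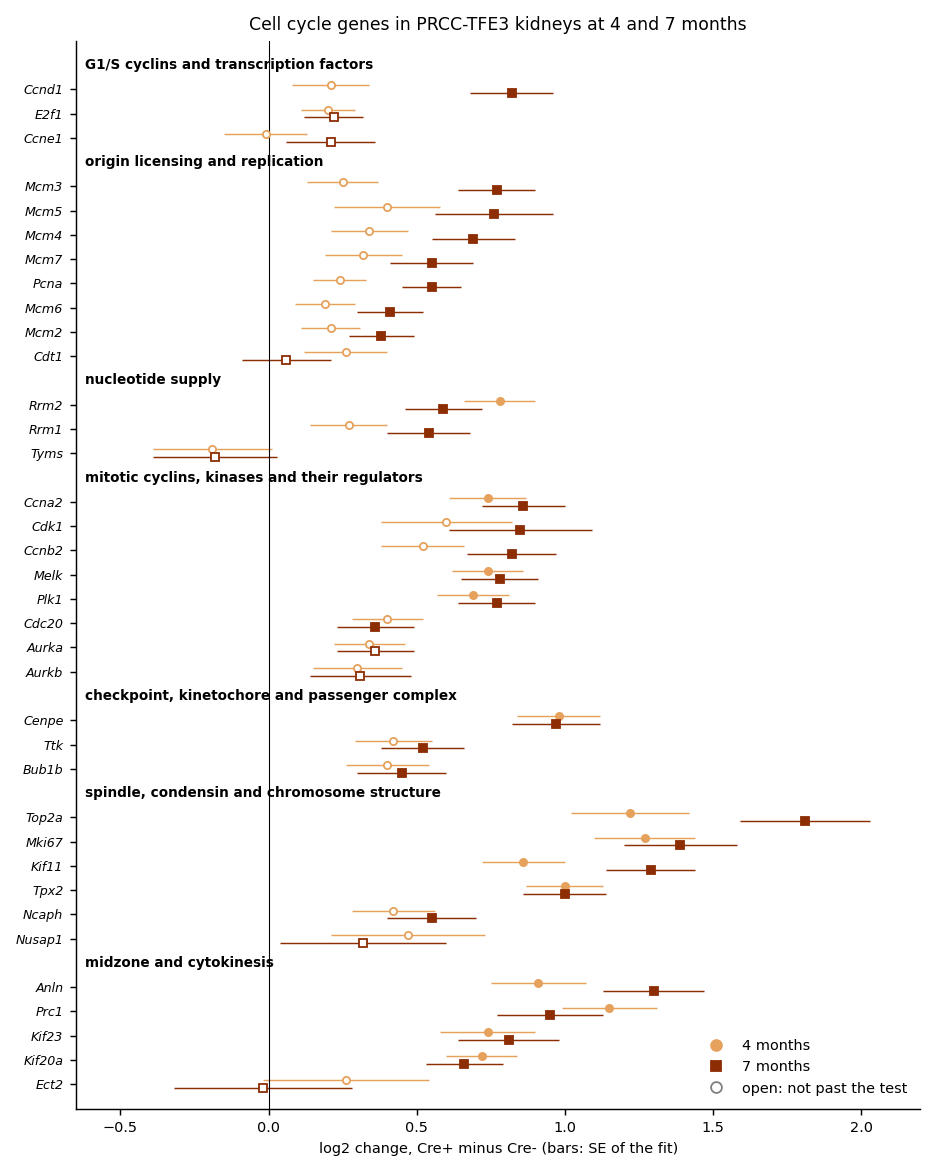
Log2 change of Cre+ against Cre- kidneys for the 36 members above the level of unused genes in at least 1 group, by role, at 4 months (circles) and 7 months (squares), with bars for the standard error of the fit. Filled symbols passed the adjusted p of 0.05: 13 at 4 months, mostly spindle and cytokinesis genes, and 28 at 7 months, with all 6 MCM subunits among them. Where Cre- kidneys lay at the level of unused genes a change may be understated. Melk, Top2a and Bub1b were above that level in Cre+ kidneys only, so the counts among the 36 partly follow from this choice. Of all 43 members 14 passed at 4 months and 31 at 7 months.

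Of the 3 measured regulators of entry into S phase none passed the test at 4 months and Ccnd1 alone at 7 months. Ccnd1, cyclin D1, drives the passage through G1. Its log2 values were 8.78, 9.12, 8.74 and 8.86 in the 4M Cre- kidneys and 8.95, 9.30, 8.93 and 9.15 in the 4M Cre+ kidneys. These ranges overlapped. At 7 months they were 8.86, 8.82 and 8.88 in the 7M Cre- and 9.63, 9.58, 10.06 and 9.40 in the 7M Cre+ kidneys, with every Cre+ kidney above every Cre- kidney. The change was 0.21 ± 0.13 (SE) at 4 months (limma adjusted p = 0.49) and 0.82 ± 0.14 at 7 months (1.76-fold, adjusted p = 0.00048). Ccne1, cyclin E1, which activates CDK2 at the start of S phase, had 4.37, 4.39, 4.33 and 4.13 in the 4M Cre- kidneys and 4.11, 4.56, 4.20 and 4.30 in the 4M Cre+ kidneys. In the older mice Ccne1 had 4.05, 4.24 and 3.97 in the 7M Cre- and 4.51, 4.57, 3.89 and 4.20 in the 7M Cre+ kidneys, so its groups overlapped at both ages, and the changes of -0.01 ± 0.14 and 0.21 ± 0.15 did not pass the test (limma adjusted p = 0.98 and 0.39). E2f1 encodes the transcription factor that turns on many S phase genes. It had 4.07, 4.08, 4.03 and 4.21 in the 4M Cre- kidneys and 4.31, 4.20, 4.39 and 4.28 in the 4M Cre+ kidneys. At 7 months E2f1 had 4.07, 4.35 and 4.10 in the 7M Cre- and 4.33, 4.35, 4.37 and 4.51 in the 7M Cre+ kidneys. These values lie close to the level of unused genes, 3 of the 4 arrays of 4M Cre- being below 4.15, and changes of 0.20 ± 0.09 and 0.22 ± 0.10 did not pass (limma adjusted p = 0.31 and 0.15).

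The genes of origin licensing and replication that passed the test did so at 7 months only. The test of the difference between the ages, given below, was passed by none of them. Mcm2 to Mcm7 encode the helicase that is loaded at origins and unwinds DNA, and Pcna encodes the clamp that holds the polymerases on it. None of the 9 genes passed at 4 months, when their log2 changes ran from 0.19 to 0.40 with a median of 0.26 and were all positive. At 7 months 7 of the 9 were higher, the 6 MCM subunits and Pcna, and the median change was 0.55. For Pcna the values were 8.21, 8.21, 8.07 and 8.06 in the 4M Cre- kidneys and 8.28, 8.42, 8.37 and 8.45 in the 4M Cre+ kidneys. Although these groups did not overlap, the change of 0.24 ± 0.09 did not pass the test over all genes (limma adjusted p = 0.19). The values of Pcna at 7 months were 8.15, 7.89 and 8.07 in the 7M Cre- and 8.63, 8.64, 8.62 and 8.45 in the 7M Cre+ kidneys, a rise of 0.55 ± 0.10 or 1.46-fold (limma adjusted p = 0.00056). Mcm2 had 5.77, 5.61, 5.63 and 5.65 in the 4M Cre- kidneys and 6.03, 5.84, 5.93 and 5.72 in the 4M Cre+ kidneys. At 7 months Mcm2 had 5.81, 5.75 and 5.63 in the 7M Cre- and 6.09, 6.32, 6.02 and 6.0 in the 7M Cre+ kidneys. Only the 7-month groups of Mcm2 were apart, and its change went from 0.21 ± 0.10 to 0.38 ± 0.11 (limma adjusted p = 0.29 and 0.016). Mcm6 had 6.34, 6.26, 6.31 and 6.27 in the 4M Cre- kidneys and 6.25, 6.56, 6.52 and 6.62 in the 4M Cre+ kidneys. At 7 months Mcm6 had 6.32, 6.20 and 6.51 in the 7M Cre- and 6.80, 6.70, 6.78 and 6.72 in the 7M Cre+ kidneys. The 4 Cre+ kidneys of 7 months lay between 6.70 and 6.80, above all others, with a change of 0.41 ± 0.11 after 0.19 ± 0.10 at 4 months (limma adjusted p = 0.0095 and 0.35).

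The largest changes among the replication genes at 7 months were those of Mcm3, 0.77 ± 0.13 or 1.7-fold (limma adjusted p = 0.00036), and Mcm5, 0.76 ± 0.20 or 1.69-fold (adjusted p = 0.0094). Mcm4 rose by 0.69 ± 0.14 and Mcm7 by 0.55 ± 0.14 (limma adjusted p = 0.0018 and 0.01). The 6 subunits had a median change of 0.28 at 4 months and 0.62 at 7 months. Cdc6 and Cdt1, the proteins that load the helicase, did not pass at either age: Cdt1 changed by 0.26 ± 0.14 at 4 months and 0.06 ± 0.15 at 7 months (limma adjusted p at 7 months = 0.83). Cdc6 lay at the level of unused genes, with means of 3.51, 3.85, 3.87 and 3.96 in 4M Cre-, 4M Cre+, 7M Cre- and 7M Cre+ kidneys (adjusted p = 0.21 and 0.72 at 4 and 7 months). With only 3 Cre- mice at 7 months some calls rested on single arrays. The call of Mcm7 was lost without 7M Cre- replicate 1 (adjusted p = 0.066), that of Mcm6 without replicate 2 (0.065) and that of Mcm5 without replicate 3 (0.064). Mcm2 lost its call without 7M Cre- replicate 3 (0.062) or 7M Cre+ replicate 2 (0.053), and under quantile normalization (0.13) or centring (0.078), while Mcm3, Mcm4 and Pcna kept theirs under every alternative run.

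Of the genes of nucleotide supply, Rrm2, the regulated subunit of ribonucleotide reductase, was the only member outside mitosis that passed at 4 months. It had 4.39, 4.69, 4.46 and 4.36 in the 4M Cre- kidneys and 5.04, 5.23, 5.52 and 5.20 in the 4M Cre+ kidneys. The groups lay apart, and the rise was 0.78 ± 0.12 or 1.71-fold (limma adjusted p = 0.001). At 7 months Rrm2 had 4.86, 4.50 and 4.86 in the 7M Cre- and 5.38, 5.23, 5.47 and 5.25 in the 7M Cre+ kidneys, a rise of 0.59 ± 0.13 (adjusted p = 0.0031). Averaging its 2 entries, of which the other lay at a mean of 2.27, ended the 7-month call (adjusted p = 0.088). Rrm1, the large subunit, changed by 0.27 ± 0.13 at 4 months and rose by 0.54 ± 0.14 at 7 months (limma adjusted p = 0.32 and 0.0092), a call lost without 7M Cre- replicate 2 (0.066). Tyms, thymidylate synthase, had changes of -0.19 ± 0.20 and -0.18 ± 0.21 that did not pass (adjusted p = 0.7 and 0.62).

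**Figure D3:**
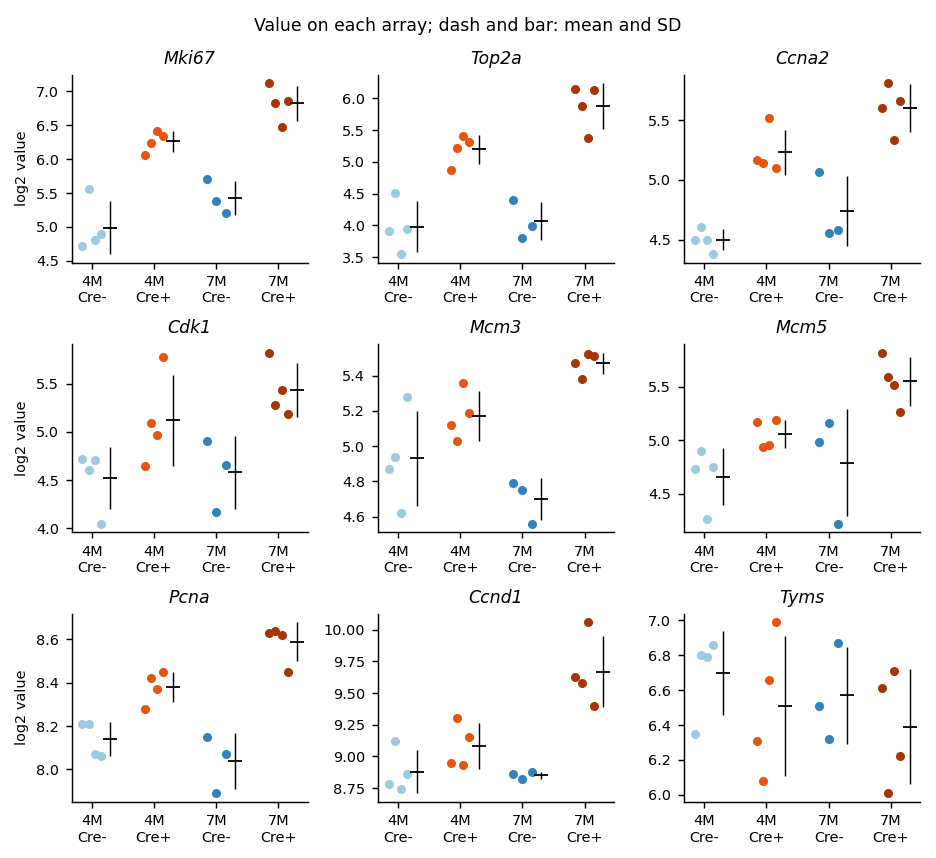
Log2 value on each array for 9 members in the 4 groups, with a dash and bar for the mean and SD of each group; each panel has its own axis. Mki67, Top2a and Ccna2 lie apart between Cre+ and Cre- at both ages, Mcm3 and Ccnd1 at 7 months only, and Tyms at neither age.

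Of the mitotic cyclins, kinases and their regulators, 3 of 9 measured genes were higher at 4 months and 6 at 7 months, with medians of 0.52 and 0.77. Ccna2 encodes cyclin A2, which acts from S phase to early mitosis. Its values were 4.50, 4.61, 4.50 and 4.38 in the 4M Cre- kidneys and 5.17, 5.14, 5.52 and 5.10 in the 4M Cre+ kidneys, with no overlap, a rise of 0.74 ± 0.13 (limma adjusted p = 0.0037). At 7 months they were 5.07, 4.56 and 4.58 in the 7M Cre- and 5.60, 5.81, 5.33 and 5.66 in the 7M Cre+ kidneys, again apart, a rise of 0.86 ± 0.14 or 1.82-fold (adjusted p = 0.00028). Plk1, the kinase of mitotic entry and spindle assembly, had 4.61, 5.05, 4.66 and 4.42 in the 4M Cre- kidneys and 5.23, 5.39, 5.56 and 5.30 in the 4M Cre+ kidneys. At 7 months Plk1 had 4.68, 4.90 and 4.79 in the 7M Cre- and 5.48, 5.61, 5.70 and 5.47 in the 7M Cre+ kidneys. Its groups lay apart at both ages, and the rises were 0.69 ± 0.12 and 0.77 ± 0.13 (limma adjusted p = 0.0036 and 0.0004). Melk, a kinase of dividing cells, had 3.72, 3.93, 3.62 and 3.71 in the 4M Cre- kidneys and 4.29, 4.54, 4.51 and 4.61 in the 4M Cre+ kidneys. At 7 months Melk had 3.95, 3.72 and 3.78 in the 7M Cre- and 4.90, 4.64, 4.32 and 4.53 in the 7M Cre+ kidneys. Melk too was apart at both ages, and its rises passed the test (limma adjusted p = 0.0016 and 0.00029). Every Cre- array of Melk lay below 4.15, and the rises were at least 1.26-fold and 1.37-fold.

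Cdk1, the kinase that starts mitosis, varied more between mice. The values at 4 months were 4.72, 4.61, 4.71 and 4.05 in the 4M Cre- kidneys and 4.65, 5.09, 4.97 and 5.77 in the 4M Cre+ kidneys, which overlapped because 1 Cre+ kidney lay at 4.65, and the change of 0.60 ± 0.22 did not pass (limma adjusted p = 0.18). At 7 months they were 4.91, 4.17 and 4.66 in the 7M Cre- and 5.82, 5.28, 5.43 and 5.18 in the 7M Cre+ kidneys, with no overlap and a rise of 0.85 ± 0.24 or 1.8-fold (adjusted p = 0.017). That call was lost without 7M Cre- replicate 2 (0.11), without 7M Cre+ replicate 1 (0.055) and in the plain linear model (0.055). Ccnb2, cyclin B2, its mitotic partner, missed the threshold at 4 months with 0.52 ± 0.14 (limma adjusted p = 0.051, and 0.02 to 0.049 under 7 of 18 alternatives) and rose by 0.82 ± 0.15 at 7 months (adjusted p = 0.00075). Cdc20, the activator of the anaphase-promoting complex, changed by 0.40 ± 0.12 and 0.36 ± 0.13, and its 7-month call, at an adjusted p that rounds to 0.05, was lost under 11 of 17 alternatives (0.059 to 0.15), among them the removal of any 7M Cre- array or of 7M Cre+ replicate 1, 2 or 4. Aurka and Aurkb, the aurora kinases of the spindle pole and of the chromosomes, had changes of 0.36 ± 0.13 and 0.31 ± 0.17 at 7 months that did not pass (limma adjusted p = 0.055 and 0.22). Nor did Foxm1, the transcription factor of G2 and M genes, pass, with means of 3.65 in 7M Cre- and 3.94 in 7M Cre+ kidneys, both at the level of unused genes (adjusted p = 0.093). Some passed at 7 months when 1 array was left out: Aurka without 7M Cre- replicate 1 (0.037) or 7M Cre+ replicate 1 (0.041), Aurkb without 7M Cre+ replicate 3 (0.048) and Foxm1 without 7M Cre- replicate 3 (0.024). With weights for arrays Aurka and Foxm1 passed as well (limma adjusted p = 0.022 and 0.024). Foxm1 also passed under quantile normalization (0.043) and with the Y-linked covariate (0.042). At 4 months Aurka and Aurkb changed by 0.34 ± 0.12 and 0.30 ± 0.15, and Foxm1 had means of 3.62 in Cre- and 3.93 in Cre+ kidneys.

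In the group of checkpoint, kinetochore and chromosomal passenger genes 1 of 7 passed at 4 months and 5 at 7 months. Cenpe, the kinesin of the kinetochore, had 4.46, 4.01, 4.09 and 3.87 in the 4M Cre- kidneys and 4.71, 5.24, 5.13 and 5.28 in the 4M Cre+ kidneys. At 7 months Cenpe had 4.39, 4.26 and 4.53 in the 7M Cre- and 5.49, 5.23, 5.27 and 5.45 in the 7M Cre+ kidneys. All Cre+ kidneys lay above all Cre- kidneys at both ages, and both rises passed the test (limma adjusted p = 0.00043 and 0.00015). The rise was at least 1.82-fold at 4 months, where the Cre- mean of 4.11 lay at the level of unused genes, and 0.97 ± 0.15 or 1.95-fold at 7 months. Bub1, Bub1b and Ttk encode kinases of the spindle checkpoint. None passed at 4 months (limma adjusted p = 0.098, 0.16 and 0.1), and all 3 were higher in Cre+ kidneys at 7 months (adjusted p = 0.0032, 0.046 and 0.012). Against the level of unused genes, at which their 7M Cre- means lay, Bub1b rose at least 1.27-fold and Ttk at least 1.35-fold. Bub1 lay at that level in every group, with means of 3.31, 3.69, 3.16 and 3.74 in 4M Cre-, 4M Cre+, 7M Cre- and 7M Cre+ kidneys. So did Cenpf, a kinetochore protein, with means of 3.53, 3.85, 3.60 and 3.99 in the same order, and it passed at 7 months only (limma adjusted p = 0.19 and 0.043). The 7-month calls were lost under 10 of 16 alternatives for Bub1b (0.051 to 0.22) and under 9 of 16 for Cenpf (0.056 to 0.14). Among these were the removal of any 7M Cre- array, of 7M Cre+ replicate 1 or 4, and of replicate 2 for Bub1b and 3 for Cenpf. The call of Ttk was lost without 7M Cre- replicate 2 (0.083). Birc5 (survivin) and Cdca8 (borealin) of the passenger complex did not pass and lay at the level of unused genes in every group. The 4M Cre-, 4M Cre+, 7M Cre- and 7M Cre+ means were 3.34, 3.83, 3.41 and 3.88 for Birc5 and 3.42, 3.42, 3.47 and 3.52 for Cdca8 (limma adjusted p at 7 months = 0.12 and 0.76). Without 7M Cre+ replicate 1, its lowest Cre+ array, Birc5 passed (0.012).

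Genes of the spindle, of condensin and of chromosome structure had the largest median changes of the 7 roles: 5 of 7 were higher at 4 months and 6 at 7 months, with medians of 0.86 and 1.0. Mki67 encodes the Ki-67 protein that coats mitotic chromosomes and is used to stain cycling cells. It had 4.72, 5.56, 4.80 and 4.90 in the 4M Cre- kidneys and 6.06, 6.24, 6.41 and 6.34 in the 4M Cre+ kidneys, with a gap between the groups and a rise of 1.27 ± 0.17 or 2.41-fold (limma adjusted p = 0.00029). At 7 months Mki67 had 5.70, 5.38 and 5.20 in the 7M Cre- and 7.12, 6.83, 6.48 and 6.86 in the 7M Cre+ kidneys, a rise of 1.39 ± 0.19 or 2.63-fold (adjusted p = 3.7e-05). Top2a, the topoisomerase that untangles replicated DNA, had 3.91, 4.51, 3.55 and 3.94 in the 4M Cre- kidneys and 4.88, 5.22, 5.40 and 5.32 in the 4M Cre+ kidneys. Its rise at 4 months was at least 1.95-fold (fitted log2 change 1.22 ± 0.20, limma adjusted p = 0.0017), since its Cre- means lay at the level of unused genes. The 7-month values of Top2a were 4.40, 3.81 and 3.99 in the 7M Cre- and 6.14, 5.88, 5.37 and 6.13 in the 7M Cre+ kidneys, a rise of at least 3.13-fold (1.81 ± 0.22, adjusted p = 1.3e-05), the largest measured change among the members.

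Kif11, the motor that pushes the spindle poles apart, had 4.38, 4.53, 4.62 and 4.28 in the 4M Cre- kidneys and 4.91, 5.28, 5.54 and 5.54 in the 4M Cre+ kidneys. At 7 months Kif11 had 4.57, 4.31 and 4.46 in the 7M Cre- and 6.01, 5.60, 5.60 and 5.75 in the 7M Cre+ kidneys. Its arrays were apart at both ages, with rises of 0.86 ± 0.14 and 1.29 ± 0.15 (limma adjusted p = 0.0014 and 9.2e-06). Tpx2, which activates Aurora A on spindle microtubules, had 4.33, 4.30, 4.58 and 4.25 in the 4M Cre- kidneys and 5.16, 5.20, 5.43 and 5.66 in the 4M Cre+ kidneys. At 7 months Tpx2 had 4.60, 4.69 and 4.72 in the 7M Cre- and 5.95, 5.44, 5.51 and 5.78 in the 7M Cre+ kidneys. It rose by 1.0 ± 0.13 and 1.0 ± 0.14 (limma adjusted p = 0.00018 and 5.9e-05). Kif4, a motor of chromosomes and of the spindle midzone, had 2.99, 2.98, 3.23 and 3.14 in the 4M Cre- kidneys and 3.44, 3.46, 3.40 and 3.64 in the 4M Cre+ kidneys. At 7 months Kif4 had 3.29, 3.20 and 3.51 in the 7M Cre- and 4.04, 3.87, 3.71 and 3.97 in the 7M Cre+ kidneys. All these values lay below 4.15, so no size is given. The Cre+ arrays lay above the Cre- arrays at both ages and passed the test (limma adjusted p = 0.043 and 0.0013), and the call at 4 months was lost under 13 of 17 alternatives (0.05 to 0.13), each 4-month array left out in turn among them. Ncaph, a condensin subunit, changed by 0.42 ± 0.14 and then rose by 0.55 ± 0.15 (limma adjusted p = 0.11 and 0.011). Nusap1, which bundles spindle microtubules, ran from 4.21 to 5.63 within the 4M Cre- group, and its changes of 0.47 ± 0.26 and 0.32 ± 0.28 did not pass (adjusted p = 0.4 and 0.47).

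Genes of the spindle midzone and of cytokinesis were called at both ages, 4 of 5 each time. Prc1, the protein that crosslinks midzone microtubules, had 4.21, 4.40, 4.46 and 4.14 in the 4M Cre- kidneys and 5.06, 5.51, 5.72 and 5.51 in the 4M Cre+ kidneys. At 7 months Prc1 had 5.06, 4.31 and 4.85 in the 7M Cre- and 5.90, 5.42, 5.66 and 5.76 in the 7M Cre+ kidneys. It rose by 1.15 ± 0.16 (2.22-fold) and 0.95 ± 0.18 (1.93-fold), with limma adjusted p = 0.00046 and 0.00074, and 2 of the 3 Cre- values of 7 months lay above all those of 4 months. Anln, anillin, the scaffold of the contractile ring, had 4.20, 4.03, 4.06 and 3.90 in the 4M Cre- kidneys and 4.57, 4.92, 5.12 and 5.23 in the 4M Cre+ kidneys. At 7 months Anln had 4.21, 4.05 and 4.20 in the 7M Cre- and 5.93, 5.36, 5.23 and 5.30 in the 7M Cre+ kidneys. The arrays were apart at both ages (limma adjusted p = 0.0022 and 2.3e-05). The rise was at least 1.74-fold at 4 months, where the Cre- mean of 4.05 lay at the level of unused genes, and 1.30 ± 0.17 or 2.46-fold at 7 months, where it was 4.15. Kif20a, a midzone kinesin, had 4.15, 4.35, 4.05 and 4.11 in the 4M Cre- kidneys and 4.61, 4.85, 5.11 and 4.97 in the 4M Cre+ kidneys. At 7 months Kif20a had 4.34, 4.25 and 4.36 in the 7M Cre- and 5.20, 4.96, 4.90 and 4.84 in the 7M Cre+ kidneys. Kif23, the kinesin of the centralspindlin complex, had 4.44, 4.79, 4.20 and 4.55 in the 4M Cre- kidneys and 5.26, 4.96, 5.46 and 5.25 in the 4M Cre+ kidneys. At 7 months Kif23 had 4.77, 4.49 and 5.16 in the 7M Cre- and 5.85, 5.30, 5.59 and 5.72 in the 7M Cre+ kidneys. Both were apart at each age: Kif20a rose by 0.72 ± 0.12 and 0.66 ± 0.13, Kif23 by 0.74 ± 0.16 and 0.81 ± 0.17 (limma adjusted p = 0.0014, 0.00094, 0.015 and 0.0025). The 4-month call of Kif23 was lost without 4M Cre- replicate 3 (0.064), without 4M Cre+ replicate 3 (0.063) and in the plain linear model (0.06). Ect2, the exchange factor that activates RhoA at the cleavage site, overlapped at both ages with 0.26 ± 0.28 and -0.02 ± 0.30 (adjusted p = 0.71 and 0.97).

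Whether the rise was complete at 4 months was asked with the difference of the Cre effect between the ages, 7 months minus 4 months. No member passed this test (limma, adjusted over 22180 genes), nor did any under the alternatives, and 2.14% of all genes passed it in either direction. With an unadjusted p under 0.05 there were 3 members, Ccnd1 with a difference of 0.61 ± 0.20 (95% interval 0.19 to 1.03), Mcm3 with 0.52 ± 0.18 (0.14 to 0.90) and Pcna with 0.31 ± 0.13 (0.02 to 0.59), all larger at 7 months and none past the adjusted threshold (adjusted p = 0.13, 0.16 and 0.28). At that unadjusted threshold 1 in 20 tests passes by chance where nothing differs, and the share of all genes there was not counted. The difference was positive in 32 of the 43 members and in 8525 of the 22180 genes, with medians of 0.09 and -0.08. Standard errors of the difference ran from 0.13 to 0.41, and 95% intervals reached 0.28 to 0.86 to either side, so differences smaller than this could not be told from none in a single member. For Tpx2 the difference was 0.00 ± 0.19 (-0.40 to 0.41) and for Mki67 0.12 ± 0.26 (-0.42 to 0.67). Among mitotic members the largest difference was 0.58, that of Top2a, whose Cre- means lay at the level of unused genes. Its unadjusted p was not under 0.05. The interval of Kif11, -0.01 to 0.87, lay mostly above 0. For the 15 members at the level of unused genes in any group the difference between ages compares changes of which 1 or both may be understated.

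**Figure D4:**
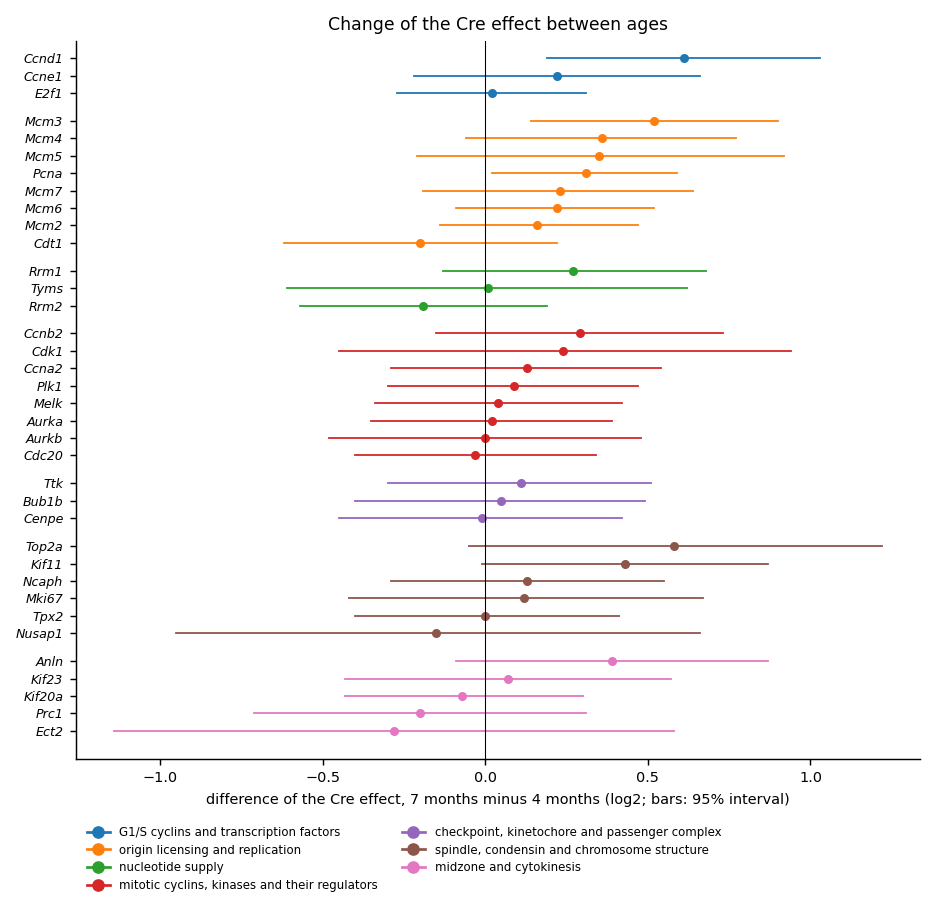
Difference of the Cre effect, 7 months minus 4 months, on the log2 scale for the 36 members above the level of unused genes in at least 1 group, coloured by role, with 95% intervals that are not adjusted over genes. The intervals of Ccnd1, Mcm3 and Pcna lie above 0, and no member passed the adjusted test.

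Comparing the ages directly, 3 members (6.98%) were higher in 7M Cre+ than in 4M Cre+ kidneys, Top2a, Ccnd1 and Kif4, and none was lower. Of all 22180 genes 914 were higher and 1488 lower, or 10.8% in either direction. The log2 changes were 0.67 ± 0.20 for Top2a and 0.59 ± 0.13 for Ccnd1 (limma adjusted p = 0.042 and 0.01), and the means of Kif4 were 3.90 and 3.48, at the level of unused genes (adjusted p = 0.018). Mki67 and Anln missed the threshold with 0.56 ± 0.17 and 0.50 ± 0.16 (both adjusted p = 0.051), and 17 members had an unadjusted p under 0.05. The share of all genes under that unadjusted threshold was not counted. It is at least the 10.8% that passed the adjusted test, so the count of 17 cannot be set against a known share. A positive change between the ages was measured in 40 of the 43 members, with a median of 0.21, and in 7553 of the 22180 genes, with a median of -0.09. The count of 3 was sensitive: it was 1 without 7M Cre+ replicate 1 or replicate 4, 5 without 7M Cre+ replicate 3, 8 with quantile normalization and 7 with centring, and only Ccnd1 was called under every alternative. Top2a lost its call under 10 of 18 alternatives (0.051 to 0.12), among them the removal of any 4M Cre+ array and of 7M Cre+ replicate 1, 2 or 4, and Kif4 without 7M Cre+ replicate 1 (0.055) or 4 (0.051). Between Cre- kidneys of 7 and 4 months no member differed, and 1 gene of all did (0.00451%). Unadjusted, 5 members had p under 0.05 there: Tpx2, Mki67 and Prc1, with 0.30 ± 0.14, 0.43 ± 0.19 and 0.44 ± 0.18, and Cdc6 and Kif4, which lay at the level of unused genes. Here too the share of all genes at the unadjusted threshold was not counted.

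Set side by side, 1 of the 15 measured genes of G1/S, replication and nucleotide supply was called at 4 months and 10 at 7 months, with median changes of 0.25 and 0.54. For the 28 measured mitotic genes the counts were 13 and 21 and the medians 0.50 and 0.62. Among members called at 7 months, the 4-month change was 0.49 of the 7-month change at the median for the 10 genes of the first kind and 0.85 for the 21 mitotic genes, or 0.9 for the 12 of them above the level of unused genes in all groups. Because these members were chosen by their 7-month call, large 7-month changes are favoured, which can lower the ratios and may do so unequally for the 2 kinds. The ratios therefore do not measure how complete the rise was at 4 months. They also rest on comparisons with different mice at each age, and the difference between the 2 kinds of gene was not tested. The mean of the 15 genes lay at 5.52 to 5.66 in 4M Cre-, 5.69 to 5.93 in 4M Cre+, 5.56 to 5.64 in 7M Cre- and 5.97 to 6.11 in 7M Cre+ kidneys, so the Cre+ ranges were apart from the Cre- ranges and from each other. The mean of the 28 mitotic genes went from 4.17 to 4.39 in 4M Cre-, from 4.68 to 5.0 in 4M Cre+, from 4.30 to 4.49 in 7M Cre- and from 4.99 to 5.24 in 7M Cre+ kidneys, where the 2 Cre+ ranges overlapped. In the same order of groups 11, 6, 10 and 6 of the 28 lay at the level of unused genes, and 2, 1, 2 and 1 of the 15. Differences of the mitotic mean may therefore be understated.

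Other genes of the same processes were counted from 3 further lists. Of all genes 2.73% were higher and 0.803% lower at 4 months, and 11.7% and 10.8% at 7 months. These shares stand beside the counts of these lists and of the marker lists below, and the smallest counts are near them. At 4 months 1 of 20 other G1/S regulators was higher, Cdk6, the partner of D-type cyclins, with 0.76 ± 0.19 (limma adjusted p = 0.029). At 7 months 9 were higher and 2 lower: Cdk6 rose by 1.31 ± 0.20, its relative Cdk4 by 0.78 ± 0.11, Ccnd2 (cyclin D2) by 0.77 ± 0.14 and the E2F family repressor E2f8 by 0.85 ± 0.19 (adjusted p = 0.00012, 8e-05, 0.00063 and 0.0037). Ccnd3 (cyclin D3) fell, with a change of -0.43 ± 0.13, and so did the retinoblastoma relative Rbl2, with -0.37 ± 0.12 (limma adjusted p = 0.028 and 0.026). Of 32 measured other replication genes 2 were higher at 4 months and 13 at 7 months. Chaf1b, a subunit of the chromatin assembly factor that follows the fork, rose by 1.70 ± 0.18 (3.26-fold) and 3.09 ± 0.20 (8.52-fold), more than any member (limma adjusted p = 1.6e-05 and 1.2e-08). Dbf4, which activates the origin-firing kinase, rose by 0.52 ± 0.14 and 0.86 ± 0.15, and at 7 months Brca1 rose by 0.83 ± 0.18 and the ligase Lig1 by 0.70 ± 0.17.

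Of 57 measured other mitotic genes 10 were higher at 4 months and none lower, led by Nuf2 (0.94 ± 0.15) and Ndc80 (0.85 ± 0.13) of the kinetochore complex that holds microtubules, the abscission protein Cep55 (0.73 ± 0.14) and Esco2 (0.69 ± 0.15), an acetyltransferase for cohesin (limma adjusted p = 0.0013, 0.00088, 0.0052 and 0.012). At 7 months 31 were higher and 2 lower. Ndc80 rose by 1.71 ± 0.14, the condensin subunit Ncapg2 by 1.36 ± 0.16, the centriole protein Stil by 1.09 ± 0.15 and Cdc25b, a phosphatase that activates CDK1, by 1.03 ± 0.13 (limma adjusted p = 2.4e-07, 7.9e-06, 4.9e-05 and 2.5e-05). Cks2, a small partner of CDK1, and Pttg1 (securin) were the 2 that fell, with -0.80 ± 0.19 and -0.65 ± 0.15 (adjusted p = 0.0041 and 0.0035). Over the 109 genes of the 3 lists the median change was 0.25 at 4 months and 0.41 at 7 months, against 0.05 and -0.04 over all genes.

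Markers of other cell types moved with the members. Of 17 macrophage and monocyte markers 6 were higher at 4 months and all 17 at 7 months, with median changes of 0.57 and 1.53, and 7 of them passed the test of the difference between ages. The mean of this list ran from 5.52 to 6.06 in 4M Cre-, 6.18 to 6.64 in 4M Cre+, 5.54 to 5.90 in 7M Cre- and 7.39 to 7.58 in 7M Cre+ kidneys, and 1 marker lay at the level of unused genes in each Cre- group. Ptprc, the CD45 antigen of leukocytes, rose by 0.86 ± 0.20 and 1.80 ± 0.21 (limma adjusted p = 0.021 and 1.1e-05). Of 10 lymphocyte markers 1 was higher at 4 months and 8 at 7 months, and the mean went from 4.31 to 4.45 in 4M Cre-, 4.43 to 4.85 in 4M Cre+, 4.17 to 4.32 in 7M Cre- and 4.99 to 5.71 in 7M Cre+ kidneys, with 4 markers at the level of unused genes in each Cre- group and 2 in 4M Cre+. Tubule injury markers were higher in 3 of 11 at 4 months and 10 at 7 months, their mean ranging from 5.26 to 5.54, 5.73 to 6.30, 5.37 to 5.48 and 6.86 to 7.23 in the same order of groups. Fibroblast markers were higher in 4 of 10 and then 6, with ranges of 7.11 to 7.52, 7.30 to 8.14, 6.99 to 7.44 and 8.34 to 8.57.

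Markers of tubule epithelium went the other way. Of 12 proximal tubule markers 3 were lower at 4 months and 12 at 7 months, and 7 passed the test of the difference, with means from 11.12 to 11.19 in 4M Cre-, 10.73 to 10.95 in 4M Cre+, 11.10 to 11.16 in 7M Cre- and 9.59 to 10.09 in 7M Cre+ kidneys. Of 12 markers of distal nephron and collecting duct 1 was higher and 1 lower at 4 months, 1 higher and 7 lower at 7 months, with means from 9.33 to 9.65, 9.22 to 9.64, 9.41 to 9.77 and 8.82 to 9.09. Of 8 endothelial markers none changed at 4 months and 3 were lower at 7 months, with means from 8.29 to 8.43, 8.17 to 8.48, 8.12 to 8.25 and 7.39 to 8.02. Which cells the cell cycle transcripts came from was not measured, and the part of these cell types in the members' rise was not tested.

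**Figure D5:**
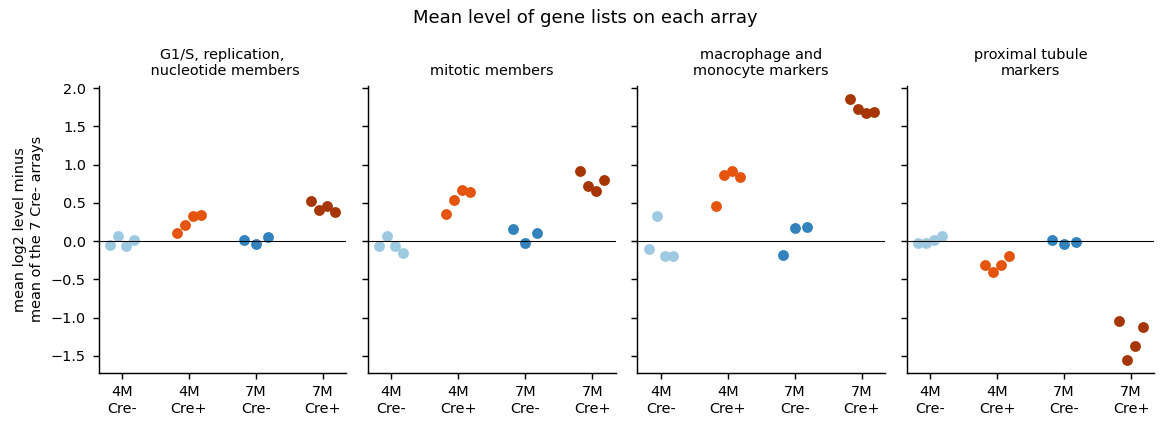
Each point is 1 array: the mean log2 level of a gene list minus its mean over the 7 Cre- arrays, for 15 genes of G1/S, replication and nucleotide supply, 28 mitotic genes, 17 macrophage markers and 12 proximal tubule markers. Both cell cycle lists are above every Cre- array in all 8 Cre+ kidneys, macrophage markers are highest and proximal tubule markers lowest in the 4 Cre+ kidneys of 7 months.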

How the data were processed

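Total RNA of flash-frozen kidneys, 100 ng per array with RNA integrity above 7, was hybridised to 15 arrays, 1 mouse each, per the labels' protocols. The deposited log2 values were made by the authors with Partek 6.6 and RMA, per the submitters' processing notes; the log2 scale was taken from the values, 1.04 to 13.12. Of 41345 entries 23521 had 1 symbol, and the entry of highest mean per gene gave 22180 genes, with no filter on dim genes. With limma 3.58.1 (lmFit, eBayes, R 4.3.3) 4 group means were estimated from all arrays and 5 contrasts taken, 2-sided tests and Benjamini-Hochberg adjustment at 0.05. Errors of log2 changes are standard errors of this fit. It was tested on simulated data. The members and lists were chosen with earlier results of these data known. Named were all measured members, at most 4 rising and 4 falling genes per further list and comparison, and at most 3 markers per cell type. Array values were given in full for members called at 4 months and for Mki67, Cdk1, Ccnb1, Mcm2, Mcm6, Pcna, Rrm2, Ccnd1, Ccne1, Ccne2 and E2f1 where measured.

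Alternatives were quantile normalization, median centring, a filter on dim genes, a robust variance with trend, the plain linear model (the series design names an analysis of variance), fits of only the groups compared, weights for arrays, a replicate block, a Y-linked covariate, averaged entries per gene, and each array left out. Groups came from titles and genotypes. Since each array is 1 mouse, p-values rest on the spread between mice, and precision is limited by how many arrays there are. The sources used here do not give the build of the array annotation. Promoters were matched by symbol to RefSeq on GRCm38.p6. Tables and figures were made with Python 3.11.15, pandas 2.3.3, numpy 2.4.6 and matplotlib 3.10.9.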

Additional observations from a re-analysis of the deposited data

Results flagged for a closer look

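Among the 129 groups of 4 arrays (43 members in the 3 groups of that size), 7 held an array far from the other three by Dixon's test, where 1 in 20, about 6.5, is what chance gives. Cdc6 read 4.20 in 4M Cre+ replicate 3 against 3.72 to 3.75 in the others, and Ccna2 read 5.52 in the same kidney against 5.10 to 5.17. In 4M Cre- replicate 1 Mcm7 read 5.82 against 5.67 to 5.69 and Tyms 6.35 against 6.79 to 6.86. Cdk1 read 4.05 in 4M Cre- replicate 4 against 4.61 to 4.72. In the 7M Cre+ group Pcna read 8.45 in replicate 4 against 8.62 to 8.64, and Birc5 read 3.28 in replicate 1 against 4.00 to 4.14.

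The Cre effect differed between 7 and 4 months for 4 of the 109 further cell cycle genes (3.67%), while no member passed this test. Of all genes 2.14% passed it in either direction. All 4 differed upward, as did 213 of the 22180 genes, while 262 genes differed downward. The difference was 1.39 ± 0.27 for Chaf1b (limma adjusted p = 0.012), 0.88 ± 0.18 for Cdc25b (0.019), 0.87 ± 0.21 for Ncapg2 (0.043) and 0.86 ± 0.19 for Ndc80 (0.028), each larger at 7 months. Chaf1b read 5.08, 4.96, 4.89 and 4.74 in the 4M Cre- kidneys and 6.09, 7.15, 6.69 and 6.56 in the 4M Cre+ kidneys, and 4.78, 4.79 and 5.09 in the 7M Cre- and 7.95, 7.89, 8.35 and 7.71 in the 7M Cre+ kidneys. Cdc25b read 4.96, 5.44, 5.15 and 5.20 in the 4M Cre- kidneys and 5.26, 5.37, 5.39 and 5.33 in the 4M Cre+ kidneys, and 5.35, 4.90 and 5.01 in the 7M Cre- and 6.32, 5.87, 6.16 and 6.13 in the 7M Cre+ kidneys.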

How the results depend on the processing

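No member changed direction while called under any alternative, and none fell at 4 or 7 months. The count of members higher stayed within 12 to 17 at 4 months and 24 to 33 at 7 months. The low of 24 came with the filter on dim genes, which left 28 members to test. It also came without 7M Cre- replicate 2, with all 43 members tested, against 31 with all arrays. Called under every alternative in which they were tested were 12 members at 4 months, 20 at 7 months and 1 between the ages in Cre+ kidneys. That last count, 3 with the deposited values, moved to 8 with quantile normalization, 7 with centring, and 5 with the filter on dim genes, with only the groups compared and with the Y-linked covariate; leaving out single arrays gave 1 to 5, and the cause was not tested. With the replicate number as a block 14, 28 and 2 members were called higher at 4 months, 7 months and between the ages in Cre+. Deviations from group means of equally numbered arrays correlated between -0.275 and 0.193 at 4 months (4 pairs) and between -0.278 and 0.222 at 7 months (3 pairs). Over pairs from any 2 groups the median was 0.167 for 21 pairs of equal number and -0.088 for 63 of different number. Whether the numbers pair the mice cannot be decided from so few pairs. Over all genes, those lower at 4 months numbered 72 to 511 and those higher 370 to 904, against 178 and 606. Genes whose effect differed between ages numbered 90 to 359 higher and 117 to 433 lower, against 213 and 262. Genes lower at 7 months numbered 3609 with centring against 2394. The arrays give no depth, and for members near 4.15 the signal over background limits what a fold can show.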

Other observations

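The D-type cyclins and their kinases, which sense growth signals in G1, did not move as one. Ccnd2 read 6.93, 6.78 and 6.75 in the 7M Cre- and 7.63, 7.37, 7.59 and 7.78 in the 7M Cre+ kidneys, with all Cre+ kidneys above. Ccnd3 read 6.68, 6.47 and 6.60 in the 7M Cre- and 6.09, 5.95, 6.27 and 6.30 in the 7M Cre+ kidneys, with all Cre+ kidneys below, and between the ages in Cre+ kidneys it fell, with a change of -0.51 ± 0.12 (limma adjusted p = 0.014). Cdk4 read 8.34, 8.20 and 8.42 in the 7M Cre- and 9.07, 9.07, 9.24 and 9.04 in the 7M Cre+ kidneys, and Cdk6 6.94, 7.69 and 7.90 in the 7M Cre- and 9.10, 8.84, 8.62 and 8.74 in the 7M Cre+ kidneys, both apart. Thus Ccnd1 and Ccnd2 rose and Ccnd3 fell in the same 4 kidneys, and Cdk4 and Cdk6 rose. Ccnd3 was 1 of 2 lower among 20 other G1/S regulators, near the 10.8% of all genes that were lower at 7 months.

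Pttg1, whose protein securin holds back the separation of sister chromatids, read 6.72, 6.39 and 6.65 in the 7M Cre- and 6.10, 5.65, 6.0 and 5.98 in the 7M Cre+ kidneys. Cks2 read 6.30, 6.18 and 6.48 in the 7M Cre- and 5.85, 5.45, 5.32 and 5.47 in the 7M Cre+ kidneys. Both lay lower in every Cre+ kidney of 7 months, in which most mitotic members were higher. They were the 2 called lower among 57 other mitotic genes, while 10.8% of all genes were lower at 7 months. Without overlap, 3 of the 57 and 3367 of all 22180 genes lay lower in Cre+ kidneys.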
